A study of Homo sapiens with 3 samples.

Results

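Domain V of 28S rRNA is the part of the large ribosomal subunit's RNA that holds the peptidyl transferase centre, and its read coverage was measured by METTL5 eCLIP in the human embryonic kidney line 293T. In eCLIP, RNA crosslinked to a protein is pulled down with that protein and sequenced. Domain V was taken as the 695 positions from 3881 to 4575 of 28S, a range set by position and not by depth, of 5070 positions in 28S and 7218 in all 4 rRNAs of the table. They make up 13.7% of the length of 28S. Each value was the number of reads over 1 position, here called depth. There were 2 eCLIP libraries, immunoprecipitated with anti-HA beads from 293T cells labelled as METTL5-HA stable lines, and 1 Input library from 293T cells labelled WT. All cells had been crosslinked with UV light at 254 nm, and RNA had been trimmed with RNase I. Going by the labels, Input differed from eCLIP in the cells as well as in the pulldown, no untagged immunoprecipitate was analysed here, and the labels name no promoter or clone for the METTL5-HA lines. The labels do not say whether the 2 eCLIP libraries are separate cultures, and their spread, with every p-value built on it, may be technical.

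METTL5 is the methyltransferase that places N6-methyladenosine (m6A) on 18S rRNA, in the small subunit. Domain V belongs to the other subunit. It folds around the site where peptide bonds form: the P loop pairs with the end of the tRNA that carries the growing peptide, the A loop pairs with the end of the incoming aminoacyl-tRNA, and a ring of conserved bases between them forms the catalytic centre. Domain V is also methylated on its bases, by ZCCHC4, the enzyme of the m6A of 28S, and by NOP2, which places a 5-methylcytidine (m5C) close to the catalytic centre. It further carries a 3-methyluridine (m3U). Of the 5 annotated genes RNA28SN1 to RNA28SN5, which are near-identical copies 5054 to 5077 nt long, RNA28SN5 has the length of the 28S in the table, and reads cannot be assigned to a copy.

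Over all rRNAs, depth summed to 17574237 for eCLIP replicate 1, 6930845 for replicate 2 and 42783485 for Input. Of these sums 28S held 95.3%, 96.6% and 72.5%. The highest value of any position was 7986, and whether recorded depth was limited is not known. Maxima on 28S were 7465, 7672 and 7986 reads in replicates 1 and 2 and Input, close together although the totals differed. If there was a limit, Input may appear flatter than it was, which was not tested. Within domain V, depth ran from 56 to 6588 in replicate 1, from 14 to 1880 in replicate 2 and from 999 to 7365 in Input. Rises in depth were followed 75 nt later by falls. The correlation of rises with falls over the positions of domain V was 0.716, 0.736 and 0.724 in replicates 1 and 2 and Input, highest at that distance among distances of 20 to 200 nt. Over all of 28S it was 0.593, 0.780 and 0.241, again highest at 75 nt but weak in Input. A read was therefore taken to span 75 nt, and neighbouring positions share their reads.

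Domain V was covered less deeply than the rest of 28S in both eCLIP libraries and slightly more deeply in Input. It averaged 2359 reads per position in replicate 1, 577.2 in replicate 2 and 6327 in Input, against 3452, 1438 and 6083 over the 4375 positions of 28S outside it. Relative to the mean of all 28S in the same library, these levels were 0.714, 0.437 and 1.03. Domain V held 9.79% of the 28S depth of replicate 1 (exact 95% binomial interval 9.67% to 9.92%), 5.99% of that of replicate 2 (5.84% to 6.15%) and 14.2% of that of Input (14.1% to 14.3%). For the intervals the number of reads was depth over 75 nt, and they cover counting error only, since reads may be copies of 1 molecule. Expressed as a log2 ratio to the Input share, domain V stood at -0.53 and -1.24 in the 2 replicates (mean -0.89 ± 0.501, SD, n = 2). The share was lower than that of Input in both replicates, and the replicates differed in the size of the difference. With 2 samples against 1, an exact permutation test cannot give a p below 0.333, so none is given.

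Most positions of domain V were shallow for 28S in eCLIP, and most were deep for it in Input. The median position of domain V had 1963 reads in replicate 1, 459 in replicate 2 and 6739 in Input. Of the 28S positions outside domain V, 31.6% were shallower than that median in replicate 1, 18.3% in replicate 2 and 73.1% in Input. Depth exceeded the 28S mean at 26.3% of domain V positions in replicate 1, 8.78% in replicate 2 and 85.5% in Input. Outside domain V it did so at 50.03% of 28S positions in replicate 1, 40% in replicate 2 and 48.5% in Input. The stretches of 28S on either side differed from domain V in part. Positions 1 to 3880 averaged 1.02 and 1.10 times the 28S mean in replicates 1 and 2 and 0.984 times in Input. Positions 4576 to 5070 averaged 1.22 and 0.985 times in eCLIP and 1.08 times in Input, so there replicate 2 lay below Input, as in domain V, and replicate 1 above it.

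**Figure D1:**
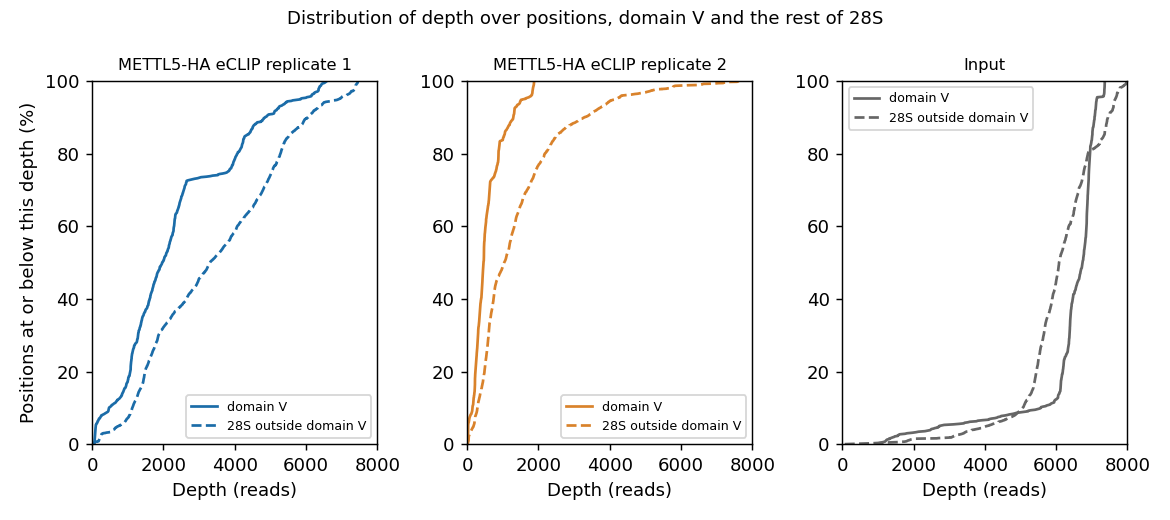
Cumulative share of positions (%, vertical axis) at or below each depth (reads, horizontal axis) for domain V (solid) and for the rest of 28S (dashed) in each library. In both eCLIP libraries the domain V curve lies to the left, with medians of 1963 and 459 reads against 3306 and 1038, while in Input it lies mostly to the right, with 6739 against 6082.

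Within domain V the eCLIP reads formed 1 broad maximum upstream of and over the ZCCHC4 site, and a gap over the A loop. Replicate 1 exceeded its 28S mean in a single run of positions, 4069 to 4251, and lay under 10% of that mean in another single run, 4479 to 4535. These runs were chosen on replicate 1 after its values were seen, so its values in them are a description, while replicate 2 and Input took no part in the choice. The run from 4069 to 4251 covers 26.3% of domain V. It held 53.5% and 54.9% of the domain's depth in eCLIP replicates 1 and 2, and 28.1% in Input. Mean depth there was 4793, 1204 and 6760 reads. Relative to the 28S mean of each library the run stood at 1.45 and 0.912 in eCLIP and 1.11 in Input. It was thus the high part of domain V in both replicates, but above the average of 28S in replicate 1 alone. Replicate 2 exceeded its 28S mean at 61 positions of domain V, all between 4170 and 4238. The deepest position was 4183 in replicate 1 and 4198 in replicate 2, 37 and 22 nt before the m6A, at 1.995 and 1.42 times the 28S mean.

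Outside that run, domain V was low in both eCLIP libraries. Replicate 1 could not exceed its 28S mean there, because the run was chosen to hold all its positions above that mean. The remaining 512 positions averaged 0.451 and 0.267 times the 28S mean in replicates 1 and 2 and 1.01 times in Input. Upstream, positions 3881 to 4068 averaged 1810 and 381.5 reads where Input averaged 6262, or 0.548, 0.289 and 1.02 times the 28S mean. Between the maximum and the gap, positions 4252 to 4478, which hold part of the catalytic centre, had 1700 and 416.1 reads against 6843. This stretch stood at 0.515 and 0.315 times the 28S mean in eCLIP and at 1.12 times in Input. Depth declined in all libraries at its 3′ end, where Input reached its lowest value of the stretch, 4778 reads.

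The gap was present in all 3 libraries and was deeper in eCLIP. Mean depth over positions 4479 to 4535 was 121.02 reads in replicate 1, 37.2 in replicate 2 and 2608 in Input. The corresponding levels were 0.0366, 0.0282 and 0.426 of the 28S mean. The lowest positions were 4508 with 56 reads in replicate 1, 4506 with 14 in replicate 2 and 4520 with 999 in Input. Replicate 2 lay under 10% of its 28S mean from 4474 to 4534, nearly the run of replicate 1, and Input lay under 50% of its mean from 4491 to 4527. Between its highest and its lowest position, depth in domain V varied 118-fold and 134-fold in eCLIP and 7.37-fold in Input. Outside domain V, 28S depth ran from 3 to 7465 and 1 to 7672 reads in eCLIP and 70 to 7986 in Input. The range of domain V was the narrower in each library.

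**Figure D2:**
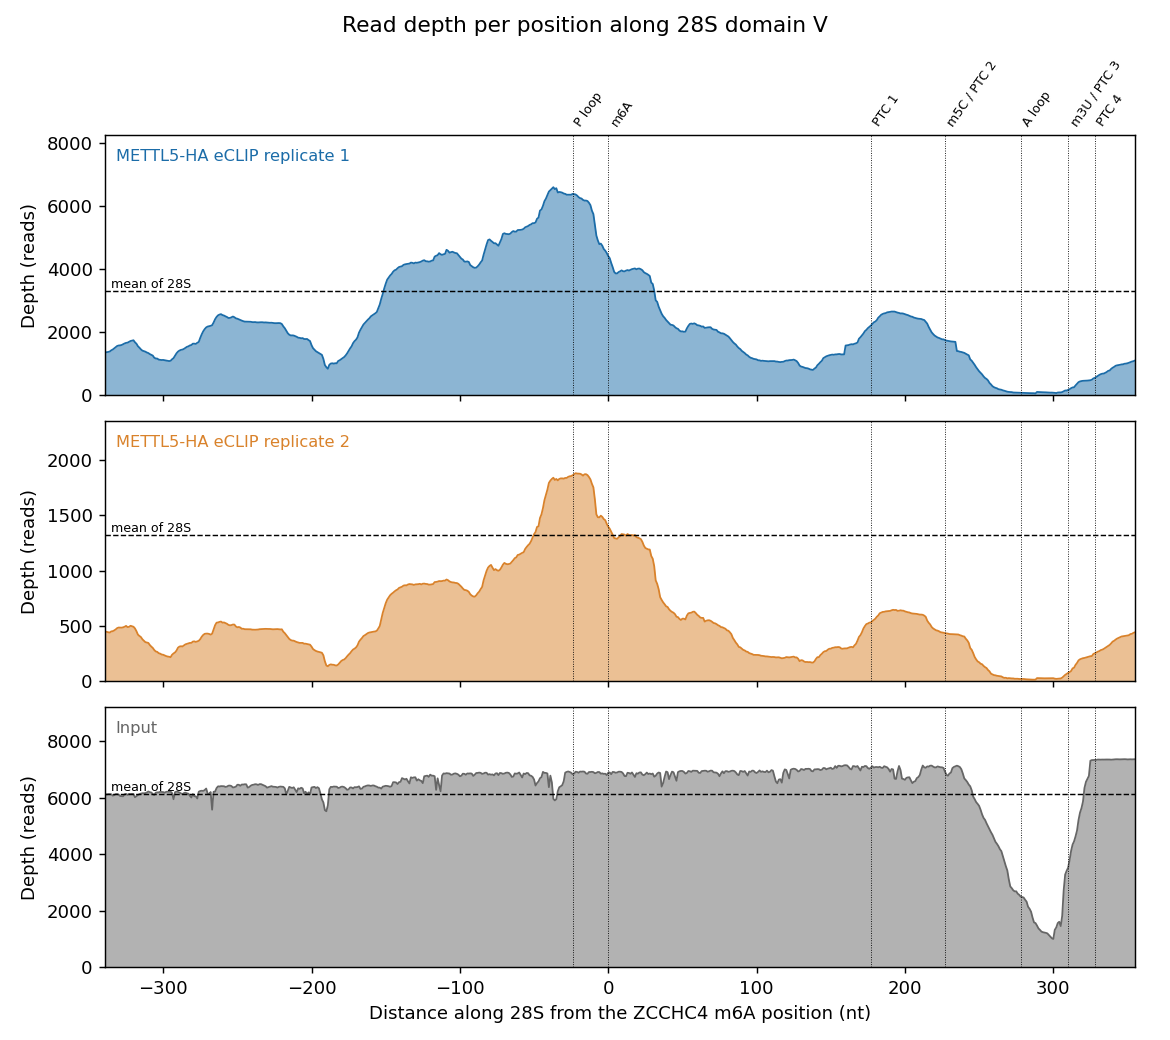
Depth (reads, vertical axis) at each position of domain V against its distance in nt from the ZCCHC4 m6A position, 1 panel per library with its own scale. Dashed lines give the library's 28S mean and dotted lines the landmarks named in the text (PTC, bases of the peptidyl transferase centre). Both eCLIP libraries peak before the m6A, at 6588 and 1880 reads, and all 3 libraries are lowest between the A loop and the m3U, at 56, 14 and 999 reads.

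Windows of 50 nt were compared between eCLIP and Input with edgeR's quasi-likelihood test over all 147 windows of the 4 rRNAs, with TMM scaling and Benjamini-Hochberg adjustment. Of the 13 windows that lie wholly in domain V, 4 were lower in eCLIP at an adjusted p under 0.05, 0 were higher and 9 did not pass. Over all windows 34.7% were called lower and 3.4% higher, so the share called lower in domain V, 30.8%, was near the background. Of the 51 windows called lower over all rRNAs, 12 were among the 102 windows of 28S. Outside domain V, 28S has 87 windows, of which 8.05% were called lower and 5.75% higher. No window of the 13 was higher at an unadjusted p under 0.05 with edgeR. DESeq2 called 6 of the 13 lower and 3 higher, where it called 38.1% of all windows lower and 35.4% higher. Of the 87 windows of 28S outside domain V, DESeq2 called 12 lower and 49 higher.

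All 4 windows that edgeR called lower lay downstream of the ZCCHC4 site. DESeq2 also called 2 windows upstream of the site lower. These were 3901 to 3950 (log2 fold change -0.59, DESeq2 adjusted p = 0.009) and 4001 to 4050 (-0.69, DESeq2 adjusted p = 0.028). Window 4501 to 4550 holds the m3U and the 2 last bases of the catalytic centre considered here. Replicate 1 averaged 222.2 reads there and replicate 2 averaged 94.0, where Input averaged 3424. Its log2 ratios were -2.42 and -1.91 in replicates 1 and 2 (edgeR adjusted p = 0.000122). Window 4451 to 4500, with the methylated bases of the A loop, had 655.2 and 171.2 reads against 4955, and log2 ratios of -1.39 and -1.58 (edgeR adjusted p = 0.00447). These 2 windows ranked among the 6 shallowest of the 102 windows of 28S in both eCLIP libraries. They also ranked 99 and 94 of 102 in Input, counted from the deepest.

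In the other 2 windows that edgeR called lower, Input averaged above its 28S mean. Window 4301 to 4350 had 1213 and 254.7 reads against 6889 in Input, with log2 ratios of -0.98 and -1.48 (edgeR adjusted p = 0.0084). Window 4351 to 4400, which reaches the first adenosine of the catalytic centre, had 1421 and 318.5 reads against 7056, with log2 ratios of -0.79 and -1.20 (edgeR adjusted p = 0.0336). With library totals in place of TMM, only window 4501 to 4550 of these 4 passed (edgeR adjusted p = 0.0129), although the edgeR log2 fold changes of the others became more negative, from -1.48 to -1.90 at 4451 to 4500, from -1.21 to -1.61 at 4301 to 4350 and from -0.98 to -1.38 at 4351 to 4400. The fit has 1 residual degree of freedom, and a read enters a window sum at each position it covers.

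The highest log2 ratios were those of the 3 windows before and over the ZCCHC4 site, none of which passed edgeR's test. Window 4151 to 4200, with the P loop, had 5859 and 1511 reads in eCLIP and 6707 in Input, and log2 ratios of 1.33 and 1.12 (edgeR adjusted p = 0.163). Window 4201 to 4250, with the m6A, had 4531 and 1434 reads against 6870, and ratios of 0.92 and 1.01 (edgeR adjusted p = 0.187). Window 4101 to 4150 had 4488 and 904.4 reads against 6804, and ratios of 0.92 and 0.36 (edgeR adjusted p = 0.2496). The last of these turned to an edgeR log2 fold change of -0.12 when scaled to the 28S total. All 3 were the windows of domain V that DESeq2 called higher, as it called 49 of the 87 windows of 28S outside it. Over the 87 windows of 28S outside domain V the median ratio was 0.79 in replicate 1 and 0.78 in replicate 2. Window 4151 to 4200 had a higher ratio than 84.3% and 62.7% of all 28S windows in the 2 replicates, window 4201 to 4250 than 56.9% and 58.8%, and window 4101 to 4150 than 57.8% and 47.1%.

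Against that median, 10 of the 13 windows were lower in replicate 1, 11 in replicate 2 and 10 in both. Of the 87 windows outside domain V, 43 were lower in each replicate, as a median requires, and 38 in both. Neighbouring windows share reads and are not independent. The median ratio of the 13 windows was -0.09 in replicate 1 and -0.45 in replicate 2. The difference between the median edgeR log2 fold change of domain V and that of 28S outside it was -1.05 with TMM. Other scalings move all windows nearly alike and so could hardly change it (-1.05 to -1.002). DESeq2's test gave -1.05. With other window sizes, a shifted grid or the middle position of each window, it lay between -1.15 and -1.03. This difference was not tested. The other 6 windows inside domain V did not pass edgeR's test, with mean log2 ratios of -0.89 to 0.33 and edgeR adjusted p of 0.0796 to 0.725. Of the 2 windows across its ends, 3851 to 3900 did not pass (log2 ratios -0.59 and -0.45, edgeR adjusted p = 0.257), and 4551 to 4600 was lower (-1.21 and -0.79, edgeR adjusted p = 0.0305).

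**Figure D3:**
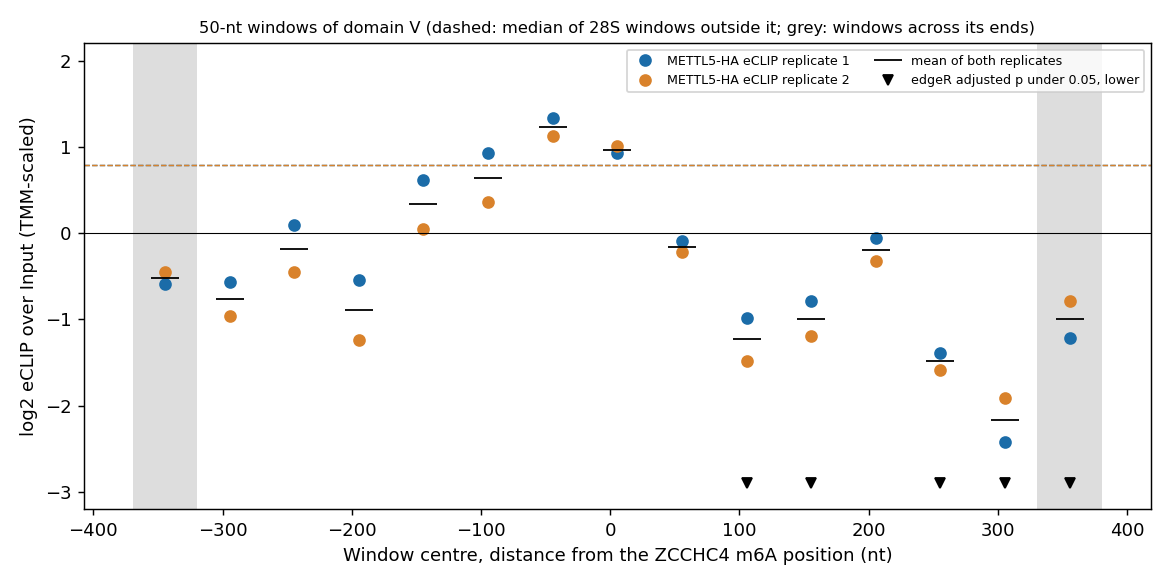
Log2 ratio of eCLIP to Input (TMM-scaled window sums, vertical axis) for each 50-nt window against the distance in nt of its centre from the m6A position. Points are the replicates, black bars their mean, triangles mark windows that edgeR called lower, and the dashed lines, which coincide, give the medians of 28S windows outside domain V (0.79 and 0.78). The ratios climb to 1.33 and 1.12 just before the m6A and reach -2.42 and -1.91 in the window with the m3U.

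The landmarks of domain V were placed by their distance from the ZCCHC4 m6A, position 4220, in the usual numbering of human 28S, and this placement was not checked against a sequence. At the guanosine of the P loop that carries a 2′-O-methyl group, position 4196, depth was 6376 reads in replicate 1, 1861 in replicate 2 and 6833 in Input. That is 1.93, 1.41 and 1.12 times the 28S mean. Of all 28S positions, 93.7% and 77.1% were shallower in eCLIP and 74.3% in Input. Over 51 nt centred on it the log2 ratio to Input was 1.33 and 1.29 in the replicates (mean 1.31 ± 0.0292, SD, n = 2), higher than that of 84.2% and 70.5% of the 5020 windows of 51 nt on 28S. It stood above 0 under each of the 5 scalings run, from 0.46 with the 28S total to 1.48 with DESeq2's size factors.

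At the ZCCHC4 m6A itself, 24 nt downstream, depth was 4408 reads in replicate 1, 1397 in replicate 2 and 6886 in Input. It lay on the downstream slope of the maximum in both eCLIP libraries, where Input was level. Relative to the 28S mean these depths were 1.33, 1.06 and 1.13. The log2 ratio over the 51 nt around it was 1.01 and 1.09 (mean 1.05 ± 0.0522, SD, n = 2), higher than that of 66.1% and 63.5% of 28S windows of that length. Scaled to the 28S total it was 0.20, with 0.03 in replicate 2. The m6A site thus stood high within domain V and near the middle of 28S as a whole.

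The bases of the catalytic centre lie in 2 groups, and both were low in eCLIP. The first group holds a conserved adenosine at position 4397, the m5C of NOP2 at 4447 and a conserved uridine at 4452. The adenosine had 2204 and 531 reads in eCLIP and 7065 in Input, which is 0.667, 0.402 and 1.16 times the 28S mean. The m5C had 1745 and 434 reads against 6922, or 0.528, 0.329 and 1.13 times, and the uridine had 1699 and 425 against 7048. Log2 ratios over 51 nt were -0.22 and -0.56 around the adenosine, -0.43 and -0.66 around the m5C and -0.57 and -0.80 around the uridine. In replicate 1 they were higher than those of 17.6% to 27.5% of 28S windows, and in replicate 2 than those of 14.9% to 20.02%.

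The A loop and the second group of catalytic bases lay in or beside the gap. At the A loop's 2′-O-methylated uridine, 4498, and guanosine, 4499, there were 73 and 72 reads in replicate 1, 20 and 20 in replicate 2, and 2500 and 2484 in Input. Fewer than 1% of 28S positions were shallower than either in the eCLIP libraries, at most 0.73%, and 1.91% and 1.89% in Input. The log2 ratio in the 51 nt around the uridine was -2.66 and -2.94 (mean -2.80 ± 0.196, SD, n = 2), the lowest of the landmarks apart from the overlapping window of its neighbour, which had -2.72 and -2.99. At the m3U, position 4530, depth was 171 and 75 reads in eCLIP and 3524 in Input, and at the uridine next to it, 4531, a base of the catalytic centre, it was 190 and 82 reads against 3802. Over the 51 nt around the m3U the log2 ratios were -2.28 and -1.76.

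At the last catalytic base considered, the adenosine at 4548, Input stood at 7340 reads, 1.20 times its 28S mean. The eCLIP libraries had 548 and 252 reads there, 0.166 and 0.191 times their means. The log2 ratio around it was -1.85 and -1.34 (mean -1.60 ± 0.361, SD, n = 2). Positions 4536 to 4575 as a whole had 738.6 and 312.5 reads in eCLIP and 7033 in Input, so low eCLIP depth continued past the end of the Input gap. Of the 10 landmarks, the P loop and the m6A had log2 ratios above 0 in both replicates and the other 8 were below 0 in both, under each of the 5 scalings run. Several neighbouring landmarks have overlapping windows that share reads, so the 10 are not independent. With TMM, 0 was not the middle of 28S, as its windows outside domain V had median ratios of 0.79 and 0.78. 28S as a whole held more of all rRNA depth in eCLIP (95.3% and 96.6%) than in Input (72.5%), so a ratio above 0 is not local to a landmark. With the 28S total, the m6A stood at only 0.03 in replicate 2.

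**Figure D4:**
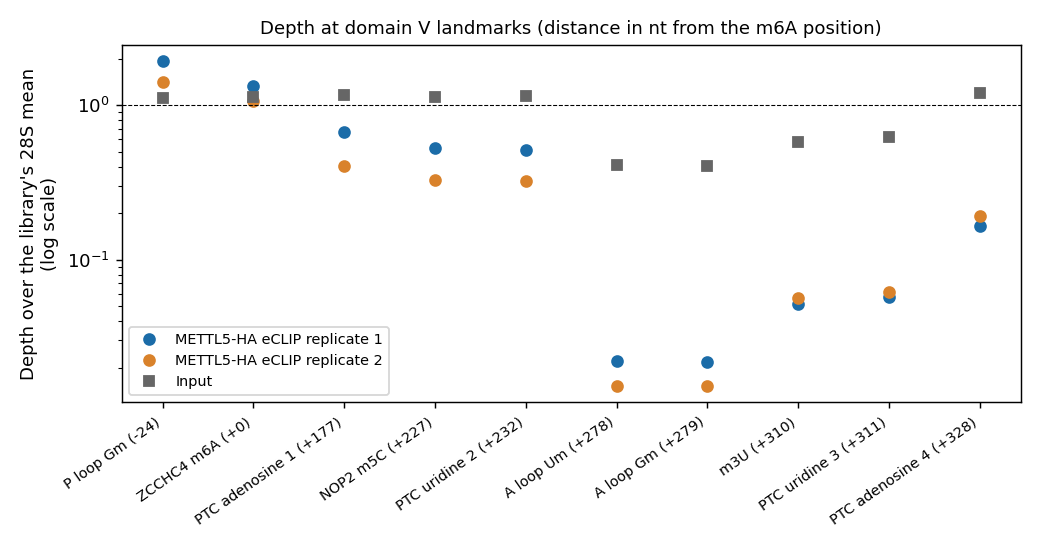
Depth at each landmark divided by the 28S mean of the same library (vertical axis, log scale; dashed line at 1), in order along domain V, with the distance in nt from the m6A in brackets. PTC adenosines and uridines 1 to 4 are the bases of the catalytic centre in order of position. The P loop stands at 1.93 and 1.41 in eCLIP, the A loop uridine at 0.0221 and 0.0151, and Input stays between 0.406 and 1.20.

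Single-position changes in depth are net changes, and do not by themselves locate where reads begin and end. The largest falls were the same positions in both eCLIP libraries: depth fell at 4212 by 346 and 135 reads, at 4211 by 332 and 109, and at 4252 by 309 and 128, in replicates 1 and 2. Input changed by 15, -42 and 34 reads there. Both libraries rose 75 nt earlier, though by less than they fell, by 168 and 43 reads at 4137, 185 and 60 at 4136, and 148 and 72 at 4177. With a span of 75 nt, a read that began at 4136 or 4137 would cover the P loop and end before the m6A, and a read that began at 4177 would cover both. A rise by 220 and 75 reads at 4174 ranked second in replicate 1 and first in replicate 2.

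One step belonged to a single library. Replicate 1 rose from 1294 to 1573 reads at 4380, by 279, the largest rise of domain V in that library, and fell by 288 at 4455. Replicate 2 changed by 0 and Input by 5 at that base. The block covers the adenosine at 4397, the m5C and the uridine at 4452. With 279 reads taken out over its 75 nt, the log2 ratios of replicate 1 would be -0.40, -0.59 and -0.72 there. This setting was chosen after the data were seen. Taking reads out could only lower these ratios, which were above those of replicate 2, so the direction was fixed in advance.

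The eCLIP libraries had like profiles across domain V. Over its 695 positions, which share reads and are not independent, Pearson's r between the depths of the replicates was 0.953 and Spearman's rho was 0.958, against 0.742 and 0.891 over the rest of 28S. With Input the values were 0.413 and 0.232 for replicate 1 and 0.392 and 0.325 for replicate 2. Over the rest of 28S, the values with Input were 0.246 and 0.260 for replicate 1 and 0.108 and 0.122 for replicate 2. The replicates differed in level more than in shape. Relative to its own 28S mean, replicate 1 was higher than replicate 2 by a median of 0.78 on the log2 scale over domain V, with an SD over positions of 0.339, against a median of 0.29 and an SD of 0.625 over the rest of 28S. The labels name no batch, and the part of library depth in this difference was not tested.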

How the data were processed

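The authors deposited whole-number counts per position of 4 rRNAs in 3 libraries, not scaled. The values vary smoothly along the RNA and were treated as read depth. Per the submitters' processing notes STAR and hg19 were used, without versions or roles. The sources used here do not say how positions were counted, whether duplicate reads were removed or whether depth had a limit. Columns IP1 and IP2 were assigned to eCLIP replicates 1 and 2. Counts were summed in windows of 50 nt and tested with edgeR 4.0.16 (R 4.3.3, TMM, filterByExpr, quasi-likelihood test, Benjamini-Hochberg at 0.05 over 147 windows). Each replicate's log2 ratio came from TMM-scaled sums and a pseudocount of 1 count. Domain V is bounded by position, but it, the lists and the landmarks were chosen with earlier results of these data known. Windows named in full were those past the threshold and the 3 highest and 3 lowest mean log2 ratios. The 2 windows across the ends of domain V were also named. Alternatives were other scalings, DESeq2 1.42.0, other windows, flanks, boundaries and denominators, and each eCLIP replicate left out. Gene lengths came from RefSeq on GRCh38.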

Additional observations from a re-analysis of the deposited data

How the results depend on the processing

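The log2 ratio of the domain V share of 28S depth, -0.89, kept its sign in all settings run. It ranged from -1.11 with medians in place of sums (chosen after seeing the data) to -0.48 with all rRNA depth as the denominator. The latter setting gave -0.14 in replicate 1 and -0.83 in replicate 2. Without the positions where Input had 7000 or more reads, the ratio of the share of 28S depth was -0.87 (-0.46 and -1.28 in the replicates). With 1 eCLIP replicate left out, the ratio of the share of 28S depth lay between -1.24 and -0.53. The count of 4 lower windows in domain V was 1 with library totals, 9 of 27 with windows of 25 nt and 1 of 6 with windows of 100 nt, and between 3 and 6 otherwise. The count of 0 higher windows was 3 with DESeq2's test and 0 in the other settings. The cause was not tested. The log2 ratio at the m6A, 1.05, became 0.61 on scaling by library totals, 0.82 by 5S and 0.20 by 28S. It was 0.95 for flanks of 10 nt, 0.98 for flanks of 50 nt, and 1.01 to 1.09 with 1 replicate left out. Of 54 values for 9 named windows under alternatives, 44 kept direction and call, 6 lost the call, 3 gained it and 1 reversed. The reversed value was that of window 4101 to 4150 with the 28S total (-0.12). The 44 include the 9 values of the setting without a count filter. The filter had removed 0 windows, so that setting repeats the main fit and could not differ. Scaling moved the overall median window (edgeR log2 fold change) from -0.16 to between -0.98 and 0.01. Without 1 replicate the windows have no residual degrees of freedom, so their counts were not recomputed. No paired analysis was possible because the single Input library carries no pairing number. Depth limits the gap, where replicate 2 had as few as 14 reads.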

Other observations

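The 3 largest rises of Input in domain V were not among the 3 largest rises of either eCLIP library, and the same held for the 3 largest falls. The libraries differ in depth, so steps in reads are not on 1 scale. At 3953 Input fell by 626 reads, from 6202 to 5576, and at 3954 it rose again by 635. The eCLIP replicates rose by 20 and 8 reads at 3953 and by 85 and 40 at 3954. Input fell by 485 reads at 4180 and by 581 at 4183, inside the eCLIP maximum, where replicate 1 rose by 111 and 41 reads and replicate 2 by 61 and 11. At 4527, 3 nt before the m3U, Input rose by 904 reads, from 1820 to 2724, its largest rise in domain V, and at 4602 it fell by 820. The eCLIP replicates rose at 4527 too, by 26 reads from 99 to 125 and by 13 from 32 to 45.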
